A study of Mus musculus with 3 samples.

Results

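The Hox genes, which encode homeodomain transcription factors, were examined on 3 expression arrays of cultured mouse cells labelled cavernous endothelial cells. All genes whose symbol is Hox, a cluster letter from a to d and a number were taken. They came to 39 genes, the members of this set, of the 19751 named genes on the array, and were read by 43 of its 26055 named probes. No measured value entered the choice.

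The cells were primary cultures from the penile cavernous tissue of C57BL/6 mice, called endothelial by the labels and grown in M199 medium with serum, heparin and vascular endothelial growth factor A. Exposure lasted 48 h. By label, the first array carries cells in normal glucose (5 mmol), another cells in high glucose (30 mmol), and the last cells in high glucose (30 mmol) transfected with 200 pmol of an siRNA against Ninj1. Each array was hybridised with a pool of RNA from 3 numbered samples. Age, passage and number of animals were not in the labels used here, nor whether cells without the Ninj1 siRNA received transfection reagent or a control siRNA. With 1 array per group there are no replicates, so no test was run, and words of direction describe these arrays only.

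Hox genes lie in 4 clusters and are numbered by position within a cluster, so that genes of the same number (a paralogue group, from 1 to 13) descend from a common ancestor. In the embryo, low numbers are expressed from the hindbrain and neck backwards, and high numbers towards the tail and the tips of limbs and genital tubercle. Hoxa13 and Hoxd13 are needed together for the genital tubercle, the embryonic precursor of the penis, and cultured adult cells can keep a Hox pattern that reflects where in the body they came from. The question put to the data is whether the 3 cultures shared that pattern.

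Ninj1, the target of the siRNA, went against the labels. Its signal was 20413 on the array labelled normal glucose, 16291 on that labelled high glucose and 25539 on that labelled siRNA, from 1 spot on each. The names of the deposited files also exchange the arrays of the 2 high-glucose groups, so arrays are called by label throughout, and directions hold for the arrays so labelled. The processed signal at the 75th percentile was 1779.5, 1728 and 2022.5 in the same order, and 67.1%, 67.6% and 70.6% of probes were well above background by the scanner software's mark. Of 14 endothelial markers 10 were above background on at least 1 array, while Tie1, Erg, Emcn and Sox18 were above it on none. Pecam1 was dim (signals of 61.9, 76.5 and 72.4), while Kdr (7440, 7298 and 8278), Egfl7 (3354, 3194 and 5967) and Eng (2207, 2242 and 1500) were bright on every array. Kdr, Egfl7 and Eng were the brightest of the 14 markers, most of which were dim. The median signal over the 14 was 51.6, 52.1 and 31.3. All 12 fibroblast markers were above background on every array, with a median signal of 37695, 38069 and 19742. Also above it on every array were all 5 macrophage markers and 7 of 10 smooth muscle and pericyte markers. The same held for 5 of 6 nerve and Schwann cell markers and 4 of 7 epithelial markers, beside 72.7% of all named genes. These are bulk samples, in which fewer cells of a type and less RNA per cell cannot be told apart.

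The stretches just upstream of the start site are shown for 4 members that stand at opposite ends of the results: Hoxd13 and Hoxa13, posterior genes above background on all 3 arrays, and Hoxb8 and Hoxb1, above it on none. They are from RefSeq, 250 bases before the start in build GRCm38.p6, read 5′ to 3′ on the gene's strand, with each CG pair in capitals.
Hoxd13, chr2:74667975-74668224, plus strand: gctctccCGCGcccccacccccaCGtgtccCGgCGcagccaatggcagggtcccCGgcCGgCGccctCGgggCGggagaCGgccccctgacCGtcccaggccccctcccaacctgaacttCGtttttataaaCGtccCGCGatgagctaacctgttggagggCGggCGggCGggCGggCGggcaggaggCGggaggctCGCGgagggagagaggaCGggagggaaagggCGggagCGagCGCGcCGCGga
Hoxa13, chr6:52260881-52261130, minus strand: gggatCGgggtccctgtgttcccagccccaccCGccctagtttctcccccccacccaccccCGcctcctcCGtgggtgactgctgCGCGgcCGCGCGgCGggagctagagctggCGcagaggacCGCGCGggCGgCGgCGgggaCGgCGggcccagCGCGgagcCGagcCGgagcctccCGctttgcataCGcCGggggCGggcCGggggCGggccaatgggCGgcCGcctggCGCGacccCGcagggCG
Hoxb8, chr11:96281655-96281904, plus strand: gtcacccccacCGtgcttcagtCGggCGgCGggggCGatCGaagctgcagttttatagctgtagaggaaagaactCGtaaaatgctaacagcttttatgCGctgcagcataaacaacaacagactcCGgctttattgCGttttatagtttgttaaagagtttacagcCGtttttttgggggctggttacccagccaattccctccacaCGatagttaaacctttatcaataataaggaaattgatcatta
Hoxb1, chr11:96365508-96365757, plus strand: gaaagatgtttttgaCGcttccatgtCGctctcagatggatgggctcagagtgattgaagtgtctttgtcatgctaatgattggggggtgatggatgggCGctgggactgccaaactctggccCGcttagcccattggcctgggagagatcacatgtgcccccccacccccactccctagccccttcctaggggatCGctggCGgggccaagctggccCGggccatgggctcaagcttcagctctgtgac
The capitals fall 31 times in the Hoxd13 stretch and 35 times in that of Hoxa13, against 12 in Hoxb8 and 7 in Hoxb1.

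That contrast did not extend to the members as a whole. The RefSeq promoter table held 22 of the 39 members, with 24 start sites. Over the 21 start sites of the 19 members above background on at least 1 array, the median was 13 CG pairs (range 2 to 35), and over the 3 members above it on no array it was 12 (range 7 to 24). The median over all 32851 promoters in the table was 6. CCAAT, searched on both strands, was found in 11 of the 21 stretches (52.4%) and in 3 of the other 3, against 33.9% of all promoters. The letters TGATNNAT, which contain the shared part of Hox and Pbx binding sequences, were in 2 of 21 and 2 of 3, against 7.68% of all, and TATAAA was in 3 of 21 and 1 of 3, against 12.4%. A match is a description of the letters and not a binding site.

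Most Hox genes carried the same mark on all 3 arrays. Of the 39 members, 27 were above background on all 3 arrays (69.2%), 9 on none (23.1%) and 3 on 1 or 2 arrays (7.69%). Over all named genes the shares were 72.7%, 20.1% and 7.17%. By array, 27 members were above background where the label is normal glucose, 29 where it is high glucose and 29 where it is siRNA. These are 69.2%, 74.4% and 74.4% of members, where 74.6%, 75.1% and 77.6% of all named genes were above it. By the software's weaker mark, a signal positive and significant against background, the numbers were 35, 36 and 36. Any pair of arrays gave 37 of 39 members the same mark (94.9%), where all named genes gave 97.0% for high against normal glucose, 94.4% for siRNA against high glucose and 94.3% for siRNA against normal glucose.

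By the count of genes above background, the clusters differed more than the arrays did, and Hoxb was the furthest from the share over all named genes. Values in sets of 3 follow the order of labels normal glucose, high glucose, siRNA. In the Hoxa cluster 10, 10 and 11 of 11 genes were above background. In the Hoxc cluster 7 of 9 were above it on each array (77.8%), and in the Hoxd cluster 7, 8 and 7 of 9. Over all named genes the shares were 74.6%, 75.1% and 77.6%, so Hoxc and Hoxd were near them. In the Hoxb cluster only 3, 4 and 4 of 10 were, and the run from Hoxb5 to Hoxb8 was above it on none. By position, 5, 6 and 5 of the 8 genes of groups 1 to 3 were above background (62.5%, 75% and 62.5%). So were 9, 9 and 10 of the 15 genes of groups 4 to 8 (60%, 60% and 66.7%). In groups 9 to 13 it was 13, 14 and 14 of the 16 genes (81.25%, 87.5% and 87.5%), beside the same shares over all named genes. Every gene of groups 10 and 11 was above background on all 3 arrays, and in group 13 Hoxa13, Hoxc13 and Hoxd13 were and Hoxb13 was not.

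**Figure D1:**
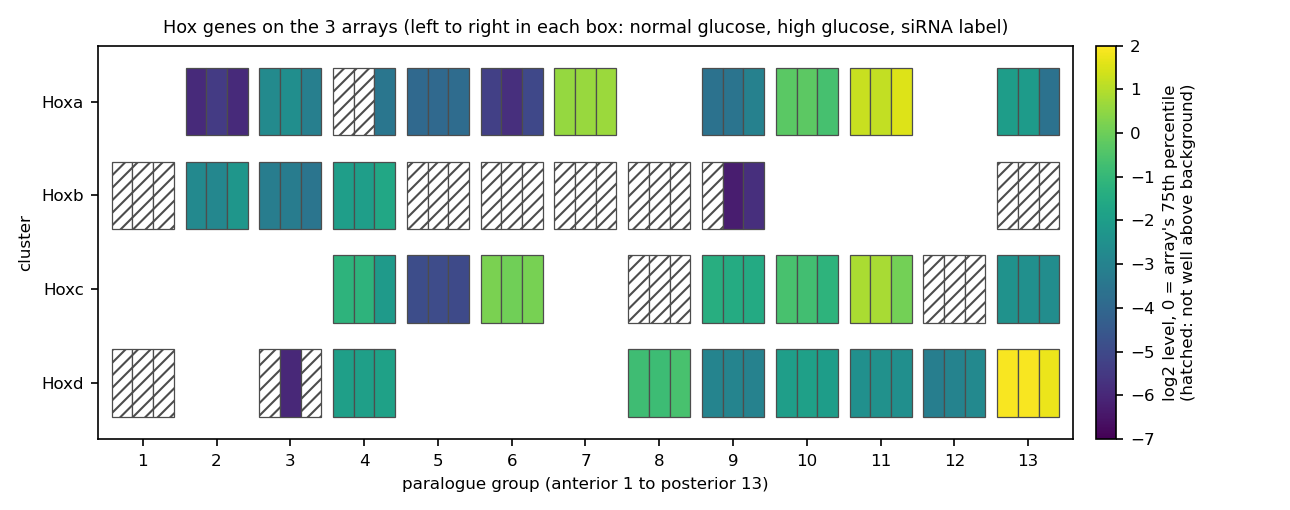
Map of the Hox genes described by cluster (rows) and paralogue group from anterior 1 to posterior 13 (columns), with the 3 arrays side by side in each box. Colour is the log2 level relative to the array's 75th percentile, and hatching marks values not well above background. Hatching covers most of the middle of the Hoxb row on all 3 arrays, and Hoxa4, Hoxb9 and Hoxd3 are the boxes that are hatched in part.

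Levels below are log2 of the processed signal minus the array's 75th percentile, so that 0 is the 75th percentile of that array. Probes differ in brightness, so a level compares arrays for the same gene and does not rank genes. Repeat spots of a probe on the same array differed by a typical 0.08 on this scale, and by 0.14 among dim probes. This covers spot noise only.

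Among the anterior genes, Hoxb1, a gene of the fourth hindbrain segment read by 8 to 10 spots per array, stayed at signals of 4.27, 3.96 and 3.41, and Hoxd1 at no more than 5.19. Neither was well above background.

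In group 2, Hoxa2, a patterning gene of the second pharyngeal arch, was close to background, with levels of -5.94, -5.45 and -5.92. The array labelled high glucose stood 0.49 above that labelled normal glucose and 0.48 above that labelled siRNA, on signals of only 28.9, 39.6 and 33.3. Its paralogue Hoxb2 had levels of -2.76, -2.83 and -2.26, so that the siRNA-labelled array was higher than the others by 0.57 (high glucose) and 0.50 (normal glucose). Hoxa2 and Hoxb2 therefore stood in opposite directions between the siRNA and high-glucose labels.

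In group 3, whose genes act in the neck and pharyngeal organs, Hoxa3 had levels of -2.72, -2.58 and -3.14, lowest under the siRNA label by 0.55 against high glucose. Hoxb3 had levels of -3.23, -3.27 and -3.50 on its brighter probe, a difference of -0.23 between the siRNA and high-glucose labels, while its second probe gave 0.25. No direction can be given for Hoxb3. Hoxd3 was well above background under the high-glucose label alone, at signals of 17.7, 27.3 and 13.7. The array labelled siRNA was at least 2.32-fold lower than that labelled high glucose (a bound of -1.22), and after normexp background correction the bound was -0.36, within 2-fold. That correction adds an offset of 50 to every signal, which by construction shrinks differences at signals this low, here and for other dim genes below.

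The central genes begin with group 4, which acts at the hindbrain and neck boundary and had a member above background in every cluster. Hoxa4 was not well above background on the arrays labelled normal and high glucose, at signals of 15.6 and 14.8, and reached 183 on the array labelled siRNA. That was at least 9.57-fold higher against high glucose and at least 9.55-fold against normal glucose, on 1 spot of 1 probe per array. After normexp correction the bound against high glucose was 1.51 on the log2 scale in place of 3.26. Hoxc4 moved the other way, with levels of -1.18, -1.20 and -2.13, or 1.90-fold lower under the siRNA label than under high glucose. Hoxb4, also known for its role in blood stem cells, had levels of -1.98, -1.98 and -1.62, and Hoxd4 of -1.95, -1.95 and -1.87.

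Group 4 thus held the widest spread of any paralogue group between the siRNA and high-glucose labels. Its 4 genes ran from -0.93 for Hoxc4 through 0.08 for Hoxd4 and 0.36 for Hoxb4 to a bound of 3.26 for Hoxa4. Between the glucose labels, Hoxb4, Hoxc4 and Hoxd4 each differed by at most 0.01 after rounding.

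Groups 5 to 8 pattern the chest region and were the most uneven. Hoxa5, which acts in lung and shoulder development and restrains vessel sprouting in endothelial cells, had levels of -3.94, -3.94 and -3.86, and Hoxc5 of -4.90, -4.94 and -4.99. Hoxa6 was dim, with levels of -5.31, -5.78 and -5.03, lowest under the high-glucose label by 0.47 (normal glucose) and 0.74 (siRNA). After normexp correction high glucose minus normal glucose was -0.063 and siRNA minus high glucose 0.096. Hoxc6 had levels of 0.19, 0.05 and 0.15. Apart from Hoxa6, these genes differed by 0.15 or less in size in each comparison with the high-glucose label.

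Hoxa7 lay above the 75th percentile on each array, with levels of 0.57, 0.61 and 0.66, and Hoxd8 just under it at -0.80, -0.83 and -0.62. Several neighbours in number were dim. Hoxb5, Hoxb6, Hoxb7, Hoxb8 and Hoxc8 had signals between 3.46 and 14.3 on all arrays and were not well above background on any. By the software's weaker mark Hoxb5, Hoxb6, Hoxb7 and Hoxc8 were positive and significant on every array, and Hoxb8 on none. Hoxb5 is the family's marker of long-term blood stem cells and Hoxb7 and Hoxc8 are genes of the trunk.

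The posterior genes, which pattern the loin, pelvis, limbs and genital tubercle, were nearly all present. In group 9, Hoxa9, a regulator of blood progenitors that also acts in endothelial cells, had levels of -3.62, -3.54 and -3.08 on its brighter probe, 0.47 higher under the siRNA label than under high glucose. Its second probe gave 0.00 for that difference. Hoxb9 had signals of 11.5, 22.3 and 36.5 and was not well above background under the normal-glucose label, and the siRNA label was 0.48 higher than high glucose, a difference of -0.0036 after normexp correction. Hoxc9 had levels of -1.36, -1.50 and -1.53 and Hoxd9 of -2.96, -2.94 and -3.03, both with differences of 0.14 or less from high glucose.

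Group 10 acts in the lumbar skeleton and, for Hoxa10, in the reproductive tract. Hoxa10 had levels of -0.30, -0.28 and -0.66, and Hoxc10 of -0.61, -0.71 and -1.18. Both were lower under the siRNA label than under high glucose, by 0.38 and 0.47, while Hoxd10 stayed level at -1.99, -1.93 and -2.03.

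Group 11 acts in the sacrum, forearm and kidney. Hoxa11 is read by 10 spots per array, so its levels of 1.26, 1.19 and 1.53 carry less spot noise than those of members read by 1 spot. Its spots ran from 3944 to 4593 under the normal-glucose label, from 3670 to 4328 under high glucose and from 5499 to 6390 under the siRNA label. Those ranges are before scaling, and repeat spots of an array show spot noise only. After scaling, Hoxa11 was 0.34 higher under the siRNA label than under high glucose. The median size over all named genes in that comparison was 0.33. Hoxc11 went the other way, at 0.85, 0.83 and 0.09, or 1.68-fold lower, and Hoxd11 stayed at -2.52, -2.47 and -2.54.

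Group 12 was split, with Hoxd12 at levels of -3.18, -2.99 and -2.77 and Hoxc12, a hair follicle gene, not well above background, at signals of 10.02, 7.42 and 9.51. In group 13, Hoxd13, the most posterior gene of its cluster, had levels of 1.90, 1.93 and 1.74 on signals of 6652, 6572 and 6738. Hoxc13, a gene of hair and nails, had levels of -2.41, -2.51 and -2.61. Hoxb13, a gene of the tail end and prostate, stayed at signals of 4.24, 4.83 and 4.12.

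Hoxa13 was the exception in its group. Its signals were 441, 401 and 164, and its levels -2.01, -2.11 and -3.62. The array labelled siRNA stood apart from both others, 2.85-fold below high glucose (-1.51) and 3.05-fold below normal glucose (-1.61), while those 2 differed by 0.09. A second, dimmer Hoxa13 probe, with signals of 74.5, 68.3 and 46.0, gave a smaller difference in the same direction, -0.80. Hoxd13, its partner in the genital tubercle, differed by -0.19 and Hoxc13 by -0.09 in the same comparison.

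**Figure D2:**
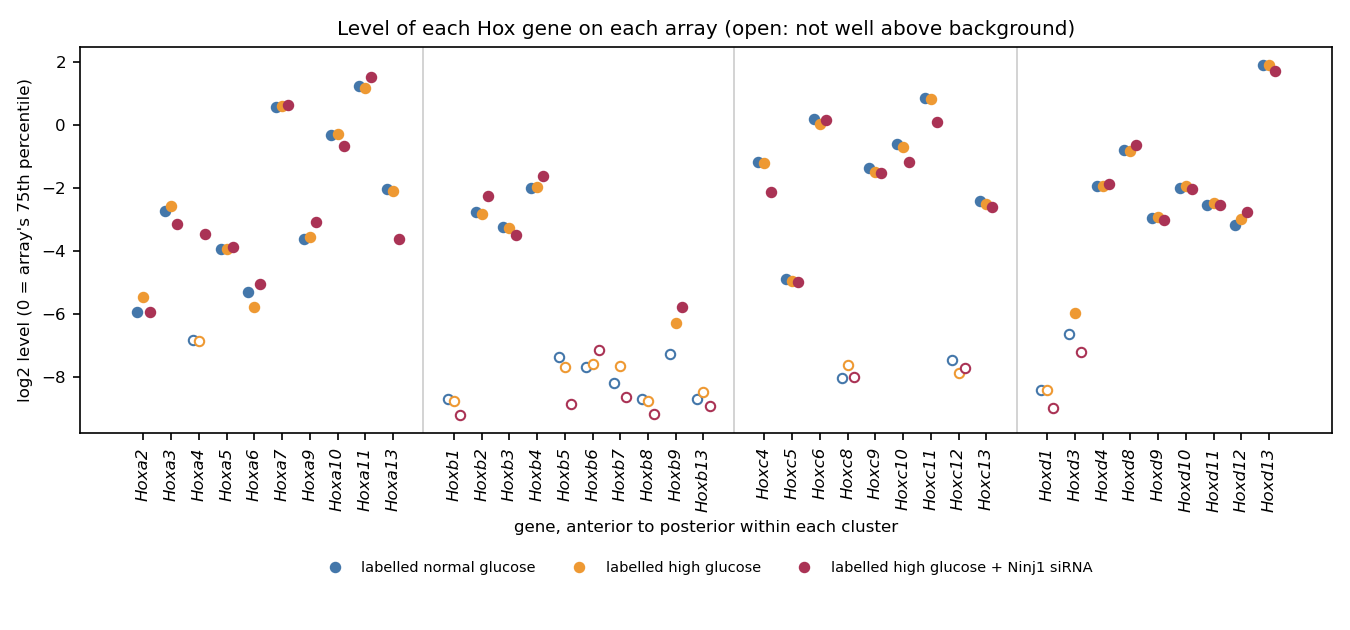
Log2 level of each Hox gene described on the 3 arrays (vertical axis, 0 is the array's 75th percentile), in order from anterior to posterior within each cluster; colours are the labels and open points are not well above background. The 3 points of a gene lie close together for most genes, and part for Hoxa4, where the siRNA-labelled point alone is filled, and for Hoxa13, where it lies at -3.62 against -2.01 and -2.11.

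When high glucose was compared with normal glucose by label, no Hox gene of the 29 that could be compared reached 2-fold, where 1.56% of all named genes did (0.861% higher and 0.702% lower). At that share fewer than 1 of 29 would pass, so the count is near the background. The median size of the difference was 0.05 on the log2 scale over the 27 measured members and 0.06 over all named genes. Hoxa2 (0.49), Hoxa6 (-0.47) and Hoxd12 (0.19) were the members with measured differences over 0.15. Hoxa2 and Hoxa6 are dim, and after normexp correction they differed by 0.23 and -0.063. The offset of that correction shrinks differences between dim values by construction. The median signed difference was -0.01 for Hox genes and -0.01 for all genes.

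All 7 measured genes of the Hoxc cluster were lower under the high-glucose label, by 0.01 to 0.15. These sizes are near the spot noise of 0.08, and 5 of 7 were lower after normexp correction. In the Hoxd cluster 6 of 7 were higher, by at most 0.19, and 4 of 7 were after quantile normalization. In the Hoxa cluster 5 were higher and 5 lower. Over all named genes 6421 of 14492 measured genes were higher and 8071 lower.

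Between the siRNA and high-glucose labels 3 of 30 members passed 2-fold, where 14.8% of all named genes did, so members passed at a share near the background. They were Hoxa4, higher, and Hoxa13 and Hoxd3, lower. Over all genes 6.55% were at least 2-fold higher and 8.25% lower. Of the 3, Hoxa13 alone was measured on both arrays. The median size over the 28 measured members was 0.27, against 0.33 over all named genes and 0.36 over the 10982 genes in the same range of levels. Of the latter, 15.2% passed 2-fold.

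Direction followed cluster only in part. Measured genes were lower in 4 of 10 cases in Hoxa, 1 of 4 in Hoxb, 6 of 7 in Hoxc and 4 of 7 in Hoxd. Over all named genes 7111 of 14524 measured genes were lower and 7413 higher. The cluster counts turned with the scaling: after quantile normalization 4 of 7 Hoxc genes and 2 of 7 Hoxd genes were lower, and after normexp correction 2 of 4 Hoxb genes were. The larger differences in Hoxc, those of Hoxc4 (-0.93), Hoxc11 (-0.75) and Hoxc10 (-0.47), were all downward. In the Hoxd cluster every measured difference was 0.21 or less in size.

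**Figure D3:**
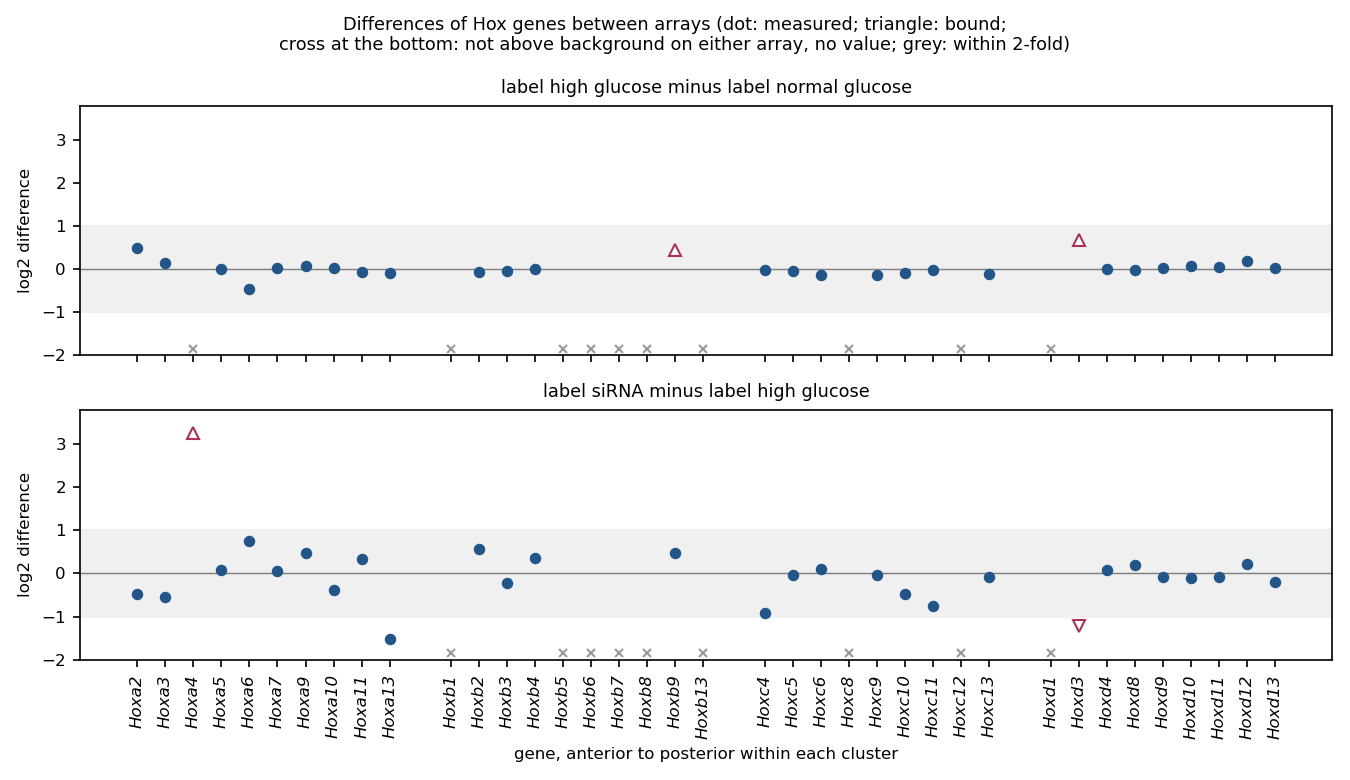
Log2 difference of each Hox gene described for the high-glucose against the normal-glucose label (top) and the siRNA against the high-glucose label (bottom); dots are measured, triangles are bounds where 1 array was not well above background, crosses have no value, and the grey band is 2-fold. In the top panel every point lies inside the band, and in the bottom panel Hoxa4 (bound 3.26), Hoxa13 (-1.51) and Hoxd3 (bound -1.22) lie outside.

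The comparison of the siRNA with the normal-glucose label reuses an array of each comparison above. Hoxa4 and Hoxa13 passed 2-fold there, 2 of 29 members, where 14.3% of all named genes did (6.39% higher and 7.92% lower). Hoxc4 was lower by 0.94, and Hoxb9 was higher with a bound of 0.93. If the file names and not the labels were right about the high-glucose arrays, this would be the comparison of high with normal glucose.

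Across genes, the levels of the 27 members above background under the high-glucose and normal-glucose labels had a Pearson r of 0.997, where all named genes gave 0.998. For the siRNA and high-glucose labels r was 0.972 over 28 members and 0.971 over all named genes. Genes are not independent replicates, and probe brightness is shared between arrays, so these values describe the likeness of profiles and carry no p-value.

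**Figure D4:**
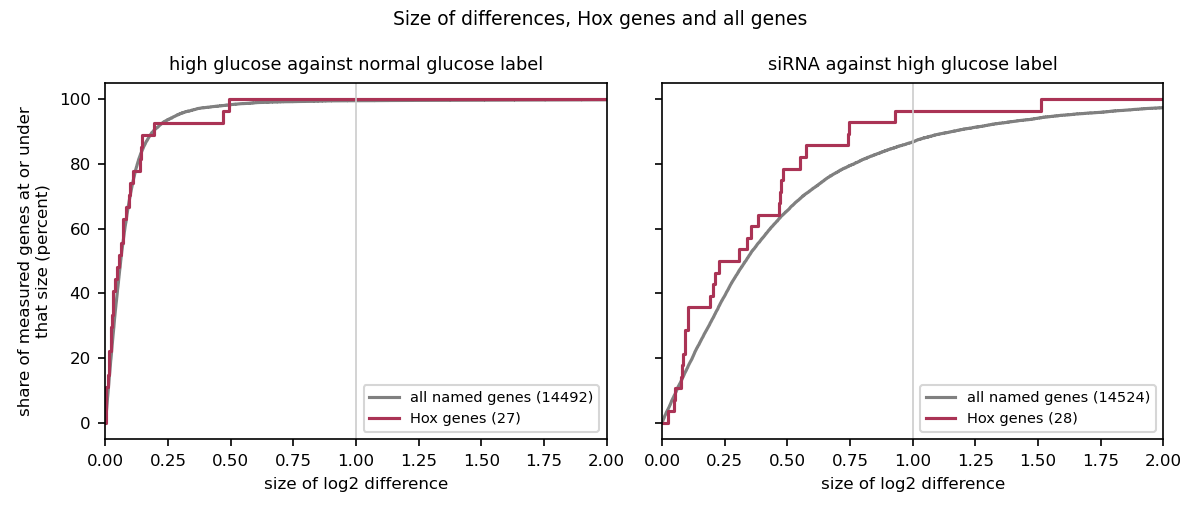
Share of measured genes (vertical axis, percent) whose log2 difference is at or under the size on the horizontal axis, for Hox genes and all named genes, with the high-glucose against normal-glucose label on the left and the siRNA against high-glucose label on the right. The curves run together on the left, with median sizes of 0.05 and 0.06, and on the right the Hox curve lies a little above that of all genes for most sizes, with medians of 0.27 and 0.33.

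Other transcripts of the clusters were few, since only 2 of 21 listed names were found. Hoxa11os, transcribed antisense to Hoxa11, had signals of 5287, 5422 and 6412 and levels of 1.57, 1.65 and 1.66, without the increase of 0.34 of Hoxa11 under the siRNA label. Hoxd3os1, antisense at Hoxd3, was near background with signals of 19.9, 28.4 and 35.7.

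Hox proteins bind DNA together with TALE homeodomain cofactors of the Pbx, Meis and Pknox families. All 9 were above background on every array, and none differed by 2-fold between the glucose labels. Under the siRNA label 1 of 9 was at least 2-fold lower than under high glucose, Pknox2, with levels of -2.11, -2.07 and -3.18 (2.16-fold). It was within 2-fold after normexp correction. Of all named genes 8.25% were at least 2-fold lower in that comparison. Pbx4, dim at signals of 36.6, 38.4 and 25.9, was lower by 0.79. Pbx2 (-0.21), Pbx3 (0.31), Meis1 (-0.31), Meis2 (-0.03), Meis3 (-0.10) and Pknox1 (0.10) stayed within 1.24-fold.

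Polycomb proteins keep Hox genes silent outside their domain and Trithorax proteins keep them active. Of 23 Polycomb genes none passed 2-fold between the glucose labels, and with the siRNA label set against high glucose 3 were higher and 1 was lower, near the 14.8% of all named genes. Ezh2, the methyltransferase of Polycomb complex PRC2, had levels of -1.16, -1.21 and 0.60, a 3.50-fold difference. Phf19, a PRC2 partner, was 3.08-fold higher and Cbx2, a reader in PRC1, 2.48-fold higher. Cbx7, another PRC1 reader, was at least 2.90-fold lower, from signals of 19.9, 29.0 and 9.88 (a bound of -1.54, which was -0.54 after normexp correction), and Phf1 was lower by 0.87.

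The median Polycomb difference was 0.13, against 0.01 over all genes. It was 0.079 with quantile normalization, 0.052 with cyclic loess and 0.018 with the mean over probes. None of 9 Trithorax and demethylase genes passed 2-fold in either comparison. Psip1, a chromatin reader that binds active Hox genes, was the largest at 0.84, followed by Rbbp5 (0.39) and Wdr5 (0.32). The others were Ash2l (0.27), Dot1l (0.25), Kdm6b (0.16), Kdm6a (-0.01), Men1 (-0.21) and Kmt2b (-0.25). Beside these values, all 16 cell-cycle genes were at least 2-fold higher under the siRNA label than under high glucose, with a median of 1.89 (3.70-fold). Their part in the Polycomb differences was not tested.

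Retinoic acid and Cdx factors set Hox domains in the embryo. Of the 24 genes listed 20 could be compared, and none passed 2-fold between the glucose labels. With the siRNA label set against high glucose, 1 was higher and 3 were lower of 20, beside the 14.8% of all named genes. Aldh1a1, which makes retinoic acid, had signals of 5561, 4928 and 590, or 9.78-fold lower. Stra6, the receptor that takes up retinol, had 91.2, 95.1 and 466, or 4.19-fold higher. The median over the 19 measured genes was -0.36, against 0.01 over all named genes. Cdx2, Cdx4, Cyp26a1 and Cyp26c1 were not well above background on any array.

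Other regional transcription factors gave a second view of position. Of 46 found, 31 were above background on all 3 arrays (67.4%) and 9 on none (19.6%). Over all named genes the shares were 72.7% and 20.1%, so the list was near the background. None passed 2-fold between the glucose labels, where 1.56% of all named genes did. Tbx4 and Pitx1, which mark the hindlimb, Isl1, an early gene of hindlimb and genital tubercle, and Tbx5, which marks the forelimb, were all above background on every array. These genes were picked for their roles after their values were seen. Tbx4 had levels of 2.77, 2.69 and 2.08, Pitx1 of 2.30, 2.28 and 2.53, Isl1 of 1.21, 1.27 and 1.24 and Tbx5 of 0.59, 0.56 and -0.02. Evx1 and Evx2, homeobox genes next to Hoxa13 and Hoxd13, were above background nowhere.

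Of 37 regional factors, 3 passed 2-fold between the siRNA and high-glucose labels, where 14.8% of all named genes did, so the count is not above the background. Meox2, a homeobox gene of muscle and vessel wall, had levels of -1.29, -1.48 and -2.72, or 2.36-fold lower. Lhx2, a gene of limb bud and forebrain, was at least 3.01-fold higher from near background, and Tcf21, a gene of mesenchymal precursors, at least 2.01-fold lower. The count was 2 of 37 with quantile normalization, cyclic loess, scaling by the median of probes above background, or the deposited value table. After normexp correction 1 of 37 passed. Shox2 (-0.87), Tbx18 (-0.78) and Tbx4 (-0.60) were lower without reaching 2-fold. The median over the 31 measured factors was -0.21, against 0.01 over all named genes.

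**Figure D5:**
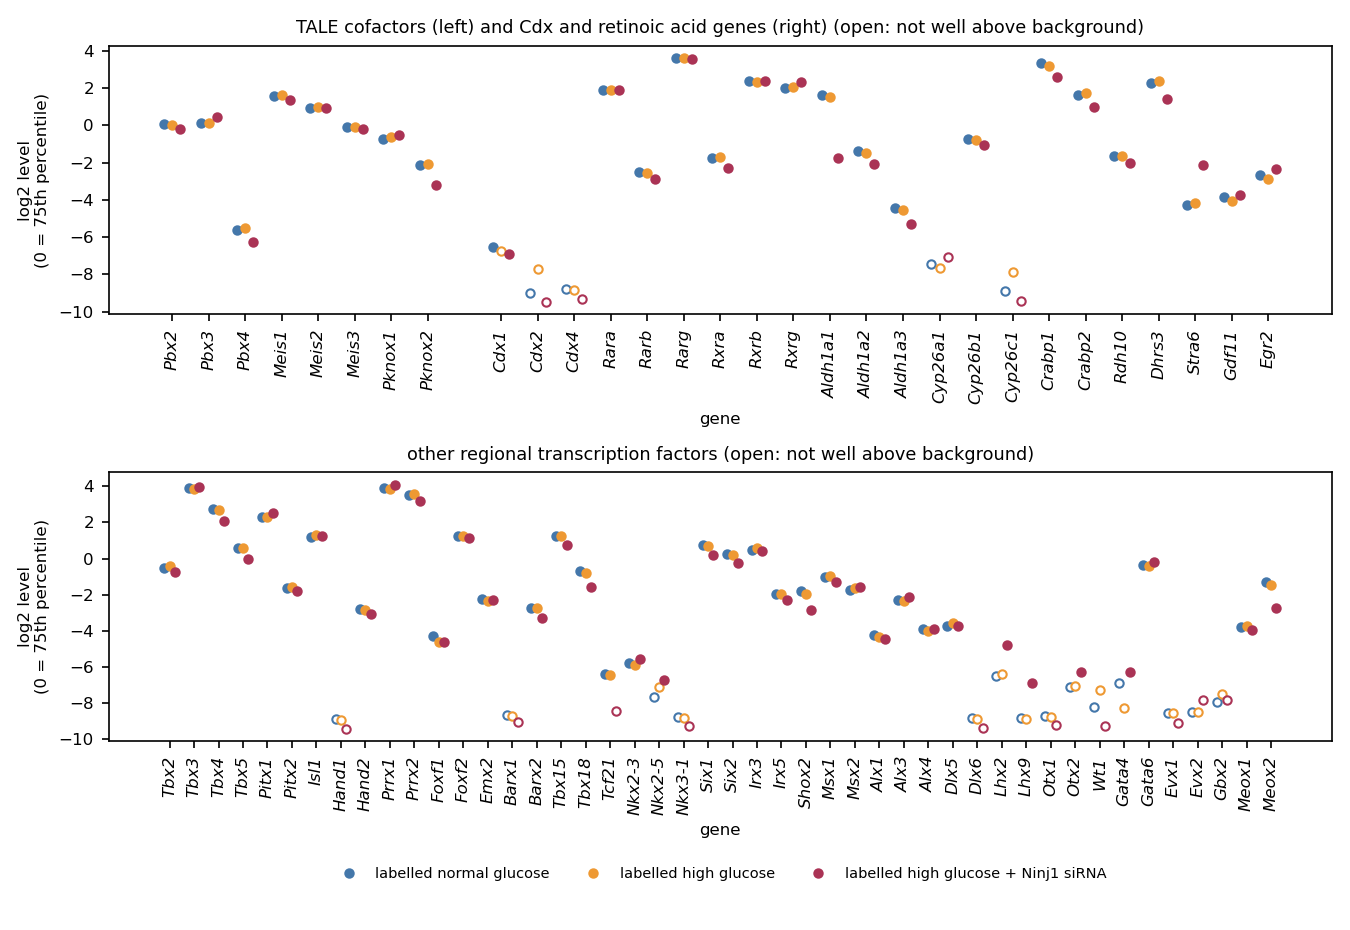
Log2 levels on the 3 arrays (0 is the array's 75th percentile) of TALE cofactors and of Cdx and retinoic acid genes (top) and of other regional transcription factors (bottom); colours are the labels and open points are not well above background. The siRNA-labelled points stand apart for Aldh1a1 and Stra6 at the top and for Meox2 at the bottom.

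Markers of cell types moved beside these differences. Of 12 fibroblast markers 6 were at least 2-fold lower and none higher for siRNA against high glucose by label, with a median of -1.08. Of smooth muscle and pericyte markers 4 were lower and 1 higher of 8, with a median of -1.13, and of endothelial markers 3 were lower and 2 higher of 10. Macrophage markers gave 3 lower and 1 higher of 5, nerve and Schwann cell markers 1 lower and 1 higher of 6, and epithelial markers none lower and 1 higher of 4. Of all named genes 8.25% were at least 2-fold lower and 6.55% higher in that comparison, with a median of 0.01. Summed over the 12 fibroblast markers, the scaled signal was 652, 661 and 484 times the array's 75th percentile, and over the 16 cell-cycle genes it was 30.3, 29.7 and 95.9 times. Over the 14 endothelial markers it was 7.58, 7.69 and 8.34 times. Between the glucose labels none of these lists held a gene past 2-fold. Their part in the differences of Hoxa13, Hoxa4, Hoxc4 and Hoxc11 was not tested.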

How the data were processed

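For each group, a pool of RNA from 3 numbered samples was labelled with Cy3 and hybridised to 1 array, with all arrays on 1 slide read in 1 scan. Per the file headers, Agilent Feature Extraction 11.0.1.1 gave a background-subtracted processed intensity on a linear scale. The authors' deposited value table is linear intensity as well and equalled each array's processed signal within 0.1% for 100% of 39030 single-spot probes. The column medians were 118, 118 and 129, with no centring. How repeat spots were combined stayed unknown. Per the file headers, the mark "well above background" is a yes or no value per spot.

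Outlier spots were left out (109, 147 and 107, by label order normal glucose, high glucose, siRNA). No spot was saturated. The log2 processed signal was averaged over a probe's spots and each array's 75th percentile subtracted. A probe was well above background where at least 50% of its spots were. Where a probe was dim on 1 of the compared arrays, the difference was taken as a bound. The dim side was then set to its own value or to that array's lowest value above background, whichever was higher. Genes were named by accession through RefSeq (GRCm38.p6), 66.1% of 39429 probes. Arrays were annotated on mm9, so no coordinates of probes are given. Of a gene's probes above background anywhere, the brightest represents it.

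Members are described gene by gene, except that a few genes of the members and lists are not reported here by name, although counts and medians include them. From each list the 4 largest measured differences under the siRNA against the high-glucose label and bounds past 2-fold were named, and all genes of lists of 10 or fewer, not all of which are printed. Some list genes, such as Pecam1, Kdr and Egfl7, were named outside this rule. Members and lists were chosen with earlier results of these data known. The number of arrays, 1 per group, limits the precision. Steps were tested on simulated arrays. Alternatives were other scalings, normexp (limma 3.58.1, offset 50, on median signals), the value table, filters, the mean over probes and thresholds of 1.5-fold and 3-fold. R 4.3.3 and Python 3.11.15 were used.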

Additional observations from a re-analysis of the deposited data

How the results depend on the processing

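Of 39 Hox genes 27, 29 and 29 were above background, and more were by the software's weaker mark, as given above. These numbers stayed within 1.5 times their reported value under every alternative run. No higher count could have left that range, since it reaches past 39. The median differences over Hox genes moved by less than the spot noise of 0.08. Those of the siRNA label changed sign with quantile normalization (0.022 against high glucose, 0.0041 against normal glucose). For Hox genes past 2-fold, the count between the glucose labels was 0. At 1.5-fold it was 1 of 29 (Hoxd3, a bound), where 2.82% of all named genes passed. For siRNA against high glucose the count of 3 became 1 of 28 with genes above background on both arrays (13.2% of all named genes). It was 5 of 39 with no filter on dim probes (16.0% of all) and 2 of 30 after normexp correction (9.01% of all). At 1.5-fold it was 6 of 30 (30.1% of all) and at 3-fold 1 of 30 (6.06% of all). None of these counts was above the share over all named genes. Between the siRNA and normal-glucose labels the count of 2 became 1 of 27 with both arrays above background (12.8% of all named genes). It was 4 of 39 with no filter (15.3% of all), 5 of 29 at 1.5-fold (29.3% of all) and 3 of 29 with cyclic loess (14.4% of all). For siRNA against high glucose, the count of 3 regional factors became 2 with quantile normalization, cyclic loess, the median scaling and the value table. After normexp correction 0 TALE cofactors (from 1) and 1 regional factor (from 3) passed 2-fold. Its offset shrinks differences between low signals by construction, and the part of the offset in these counts was not tested. Of 510 recomputed differences of single Hox genes 460 moved by less than the spot noise, 50 by more. Many could hardly move. The value table repeats the processed signal, the median scaling shifts all genes alike, and the mean over probes changes only genes with several probes. For siRNA against high glucose, quantile normalization moved 14 of 29 and normexp 11 of 29. Of the 510 differences the sign changed in 26, of which 7 moved by more than the spot noise. None of these had passed 2-fold. They include Hoxb3 (mean over probes, 0.0096 for siRNA against high glucose) and Hoxb9 (normexp, -0.0036 in the same comparison).

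Over all named genes, normexp lowered the counts of higher and lower genes from 130 and 106 to 47 and 34 between the glucose labels, and from 1025 and 1290 to 626 and 783 for siRNA against high glucose. With genes above background on both arrays the glucose comparison gave 41 and 28, and with no filter 443 and 332. The thresholds of 1.5-fold and 3-fold gave 237 and 189, and 90 and 74, in that comparison, and 2241 and 2467, and 416 and 532, for siRNA against high glucose. No paired analysis was possible because each group has 1 array, and for the same reason no replicate could be left out. Dim members (Hoxa2, Hoxa4, Hoxa6, Hoxb9, Hoxd3) are limited by signal over background.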

Other observations

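Genes that flank the Hox clusters, picked after the data were seen, were for the most part above background on every array. Beside the Hoxb cluster, Skap1, Snx11 and Ube2z were above background on all 3 arrays, with Snx11 levels of 1.72, 1.57 and 1.53 and Ube2z levels of 1.66, 1.68 and 1.58 in the order normal glucose, high glucose and siRNA by label, and Ttll6 was above it on none. Beside the Hoxd cluster, Lnpk had levels of -2.99, -3.02 and -2.49 and Mtx2 of 1.99, 1.89 and 2.00, and Hnrnpa3 was higher under the siRNA label, at 4.62, 4.63 and 5.18. Beside the Hoxc cluster, Calcoco1 was lower under the siRNA label, with levels of -1.20, -1.15 and -1.80, Smug1 stayed at -1.72, -1.65 and -1.66, and Cbx5 and Atp5g2 were higher, with levels of -0.51, -0.53 and -0.016 and of 5.72, 5.69 and 5.92. Beside the Hoxa cluster, Skap2 had levels of 1.98, 1.90 and 1.95 and Hibadh of 2.54, 2.45 and 2.56.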
